A study of Mus musculus with 6 samples.

Results

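The 8 genes described here mark tuft cells, rare chemosensory cells of the gut epithelium: Dclk1, Trpm5, Pou2f3, Il25, Avil, Sh2d6, Gfi1b and Plcb2. They were taken as named genes, by every probe set that the platform annotation assigns to one of them and to no other gene. That gave 18 probe sets, of 34958 that name 1 gene, and 8 of the 18194 genes so named. Each gene is led by its probe set of highest mean over the 6 arrays. Tuft cells sense luminal metabolites through a taste-like cascade, in which phospholipase C beta 2 (Plcb2) raises calcium and calcium opens the cation channel Trpm5. They depend on the transcription factor Pou2f3 and are the main epithelial source of the cytokine IL-25, the product of Il25. IL-25 acts on lymphoid cells that release IL-13, which in turn expands the tuft cell and goblet cell lineages.

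RNA of whole colon from 6 C57BL/6 mice was hybridised to Affymetrix mouse arrays, 1 array for each mouse. The 3 deficient mice were PPAR g fl/fl; Lysozyme M cre+ and so lose the nuclear receptor PPAR gamma in cells with an active lysozyme M promoter, mainly macrophages and neutrophils. The 3 control mice were PPAR g fl/fl; Lysozyme M cre- littermates, which carry the floxed alleles but no Cre. All were 6 to 8 weeks old and received 2.5% dextran sodium sulfate (DSS), which injures the colonic epithelium, with tissue taken on day 7, so no untreated colon was measured. Tuft cells are epithelial and are not among the macrophages to which the sample titles assign the deficiency. Where Cre acted was not measured on these arrays. Values are log2 expression summaries, and a difference is deficient minus control on that scale.

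The arrays did not share 1 bowel profile. Over 9 small intestine genes the mean log2 level was 10.63 on deficient replicate 3 and 12.01 on control replicate 1, against 4.52 to 6.57 on the other 4 arrays, and over 9 colon genes it was 4.50 and 3.29, against 6.41 to 7.15. Those 2 arrays are called ileum-like and the other 4 colon-like, although every sample is labelled colon. Deficient replicate 1 lay closest to the division, at 6.57 for small intestine and 6.77 for colon genes. The 4 colon-like arrays also differed in genes of the body axis. Hoxd10 stood at 3.91 and 2.29 in deficient and at 6.59 and 6.51 in control samples. Hoxb13 stood at 3.76 and 7.30 in deficient and at 2.26 and 2.25 in control samples. Both exceeded log2 4 on fewer than 3 of the 6 arrays. Hoxa10 read 8.92 and 8.88 in deficient and 7.23 and 7.07 in control samples, and Hoxd13 did not exceed 2.36 on any array. Pparg itself read 7.05 ± 2.53 in deficient and 8.24 ± 2.57 in control samples (SD, n = 3 each). The epithelium of this tissue also expresses it, so these values do not check the deletion. Between 41.4% and 42.7% of probe sets exceeded log2 4 on each array.

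Of the 8 genes, 3 were readable in this tissue. Dclk1, Trpm5 and Avil passed the filter on low values, a log2 above 4 on at least 3 of the 6 arrays, as did 10491 genes in all. The other 5 did not pass. The set as a whole is therefore carried by few probe sets, and the label tuft cell rests on Trpm5 most directly, since Dclk1 and Avil are also expressed by neurons.

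**Figure D1:**
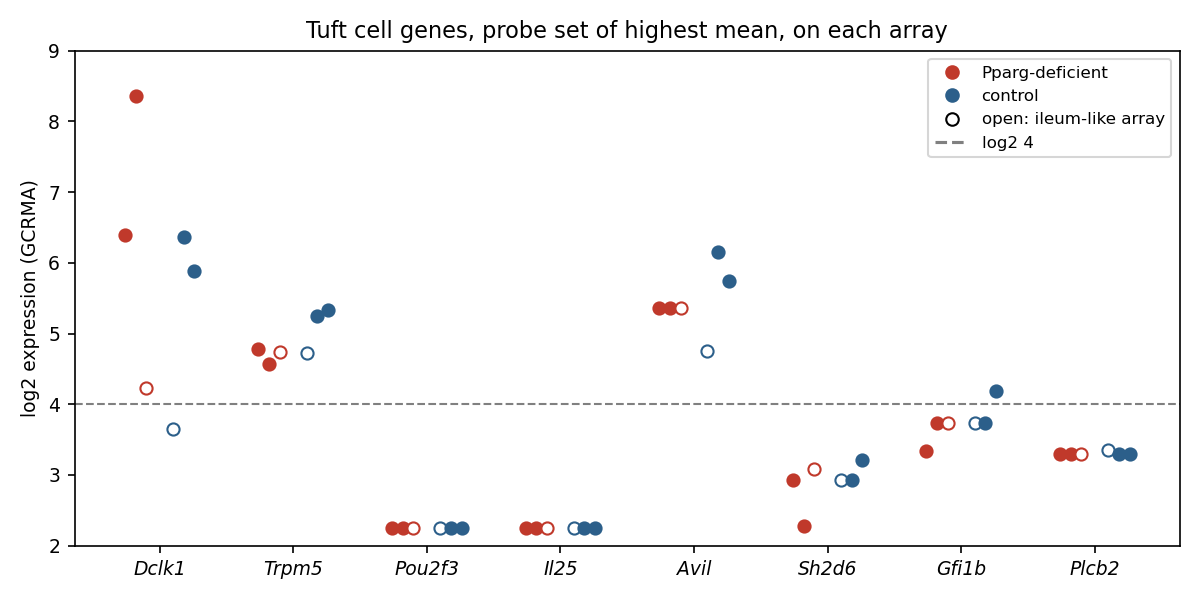
Log2 expression of the 8 tuft cell genes, each by its probe set of highest mean, with 1 point for each array, deficient samples to the left of control samples and ileum-like arrays as open circles. Pou2f3 and Il25 lie at 2.25 on all 6 arrays, Trpm5 between 4.58 and 5.33, and Dclk1 spreads from 3.66 to 8.37.

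The 2 transcription factors gave no usable level. Pou2f3, the factor without which tuft cells do not form in mice, has 1 probe set (1450507_at), which stood at 2.25 on all 3 deficient and all 3 control arrays, the lowest value in the whole table. Gfi1b, a zinc finger repressor of tuft cells that also acts in the erythroid and megakaryocyte lineages, read 3.34, 3.73 and 3.73 in deficient samples and 3.73, 3.73 and 4.18 in control samples (1420399_at). Of its 6 values 4 were the same number to every deposited decimal, and 1, on control replicate 3, exceeded log2 4. Of 10 listed markers of the erythroid and megakaryocyte lineages, 8 were at or under log2 4 on all arrays, among them Gata1, Klf1 and Itga2b. The other 2 were above it on all 6 arrays by their leading probe sets. Pf4, a platelet chemokine, read 6.95 to 8.58 in deficient and 6.69 to 9.05 in control samples. Gp1bb, a platelet receptor subunit, read 4.13 to 9.69 in deficient and 5.12 to 9.87 in control samples. A second Gp1bb probe set (1456427_at) stayed under log2 4, at 2.96 to 3.44 in deficient and 3.24 to 3.89 in control samples. The mean level of the 10 ran from 3.10 to 3.67 in deficient and from 3.20 to 3.50 in control samples.

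The cytokine and the first enzyme of the cascade were also at background. Il25 stood at 2.25 on each deficient and each control array (1420740_at). Plcb2, which cleaves a membrane lipid to release the calcium signal, read 3.29 on the 3 deficient arrays and 3.35, 3.29 and 3.29 on the control arrays (1452481_at), with the same number on 5 of the 6. Plcb2 is also used by blood leukocytes. All 10 pan-leukocyte genes were above log2 4 on these arrays, with a mean of 8.28 to 9.71 in deficient and 7.64 to 8.16 in control samples. Sh2d6, a tuft cell marker with an SH2 domain, read 2.93, 2.28 and 3.09 in deficient and 2.93, 2.93 and 3.21 in control samples (1430113_at). None of these 5 genes can be compared between genotypes, since both groups lie at or near the level of unbound probes. No transcript is shown to be absent by this, as rare cells contribute little RNA to whole tissue.

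Trpm5, the channel that ends the taste-like cascade, was measured above log2 4 by 1 of its 3 probe sets. Its signal there was still close to background, which limits the differences given for it. On 1418783_at it read 4.78, 4.58 and 4.74 in deficient samples and 4.73, 5.24 and 5.33 in control samples. The 2 highest values belong to the colon-like controls, and the groups overlap through the ileum-like control replicate 1. The means were 4.70 ± 0.11 in deficient and 5.10 ± 0.32 in control samples (SD, n = 3 each), which differ by -0.40 (standard error 0.21). In the limma fit over all genes this had an unadjusted p of 0.107 and an adjusted p of 0.714, so the difference did not pass. The other probe sets, 1449224_at and 1443413_s_at, stood at 2.25 on every array. In whole tissue, fewer tuft cells and less RNA in each cell cannot be told apart.

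Within the 4 colon-like arrays Trpm5 was at 4.78 and 4.58 in deficient and at 5.24 and 5.33 in control samples. The difference there was -0.61 (standard error 0.19), with an unadjusted limma p of 0.0328, which became 0.329 after Benjamini-Hochberg adjustment. In that fit 13.9% of all genes had an unadjusted p under 0.05, and 4.93% of all genes had one together with a lower deficient level. Between the 2 ileum-like arrays Trpm5 was at 4.74 in the deficient and 4.73 in the control sample, so no difference was seen in that pair. Enteroendocrine genes, which belong to another rare secretory cell type of the epithelium, moved with Trpm5. Their mean level was 7.49, 6.90 and 6.81 in deficient samples and 6.97, 8.60 and 8.27 in control samples. In deficient samples 8 of 9 tested members were lower, with none past the threshold. Over all genes 4505 of 10491 were lower. The mean of pan-epithelial genes did not separate the genotypes, at 12.79 to 13.09 in deficient and 12.80 to 13.25 in control samples. Of these genes 7 of 10 were lower in deficient samples, with a median difference of -0.03. The part of bowel position and of the other secretory cells in the Trpm5 values was not tested.

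The Trpm5 start region is shown since this channel is the readable gene most particular to tuft cells by background knowledge. The window covers chr7:143094593-143094892 on the minus strand (RefSeq, GRCm38.p6), 250 bases before and 50 after the start, and reads 5′ to 3′ as follows.
Trpm5: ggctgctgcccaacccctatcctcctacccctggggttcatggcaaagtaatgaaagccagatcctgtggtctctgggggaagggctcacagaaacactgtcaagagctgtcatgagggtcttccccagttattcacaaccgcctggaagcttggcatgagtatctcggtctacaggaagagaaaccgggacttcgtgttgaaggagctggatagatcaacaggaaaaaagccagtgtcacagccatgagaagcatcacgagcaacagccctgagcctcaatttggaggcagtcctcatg
It was searched on both strands for the octamer ATGCAAAT, which POU factors such as Pou2f3 bind, and for its first 7 letters, ATGCAAA, which lie within the octamer. Neither is in this window.

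Avil encodes advillin, an actin-bundling protein of the tuft cell's apical rootlets that is also made by sensory neurons. Its probe set (1419148_at) read 5.36 on all 3 deficient arrays and 4.76, 6.15 and 5.74 on the control arrays. The deficient values were equal to every deposited decimal, as were 3 or more values for 2.89% of the genes tested, so their SD of 0 does not measure the spread between mice. The control values span both sides of them, with the ileum-like control replicate 1 below. The difference was -0.19 (standard error 0.37), at an adjusted p of 0.920 by limma. It turned to 0.11 without control replicate 2 and was -0.58 without control replicate 1. On the 4 colon-like arrays it was -0.58, with an unadjusted limma p of 0.0603 and an adjusted p of 0.375, and between the ileum-like arrays it was 0.61. Avil and Trpm5 thus shared their order on the colon-like arrays, with both control samples above both deficient samples. A pattern of that kind, lower in deficient samples, was found for 18.4% of all genes tested.

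The Avil start region is shown because it was the one member window in which the octamer core occurred. It covers chr10:127000459-127000758 on the plus strand (RefSeq, GRCm38.p6), with the core in capitals, as ATGCAAA on the strand shown or as TTTGCAT where it lies on the other strand.
Avil: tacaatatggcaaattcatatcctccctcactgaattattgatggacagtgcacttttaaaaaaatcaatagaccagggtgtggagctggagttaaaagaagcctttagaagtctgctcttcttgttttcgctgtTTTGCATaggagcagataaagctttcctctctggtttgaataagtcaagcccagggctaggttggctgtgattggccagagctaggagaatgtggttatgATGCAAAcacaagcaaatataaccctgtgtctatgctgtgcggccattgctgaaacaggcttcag
The 2 cores begin 15 and 115 bases before the start. The 7-letter core was present in 4.63% of 32851 RefSeq start windows of this length, and 0.286% held at least 2. The full octamer was in 1.74% of all windows and in 0 of the 7 windows listed for 6 of the 8 genes. A match describes letters and does not show that a factor binds.

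Dclk1, a microtubule-associated kinase that serves as the usual tuft cell marker of mouse gut and is also abundant in neurons, varied most of the 3 tested genes. Its leading probe set (1424271_at) read 6.40, 8.37 and 4.22 in deficient samples and 3.66, 6.37 and 5.89 in control samples. Deficient replicate 2 was highest, both ileum-like arrays were lowest, and the groups overlapped widely. The means were 6.33 ± 2.07 in deficient and 5.31 ± 1.45 in control samples (SD, n = 3 each), which differ by 1.02 (standard error 1.22), at an adjusted p of 0.852 by limma. Single arrays set this value: it was 0.01 without deficient replicate 2, 0.20 without control replicate 1, 1.56 without control replicate 2 and 2.08 without deficient replicate 3. On the colon-like arrays the difference was 1.25, with an unadjusted limma p of 0.152, and between the ileum-like arrays it was 0.57. Both colon-like deficient values lay above both colon-like control values, by a margin of 6.40 against 6.37 at the closest, as was the case for 30.5% of all genes.

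The 9 Dclk1 probe sets disagreed in direction. Of the 6 with a value above log2 4 on any array, 4 were highest on deficient replicate 2, at 8.37 (1424271_at), 7.43 (1436659_at), 6.67 (1451289_at) and 5.23 (1424270_at). The other 2 were highest on control replicate 3. On 1450863_a_at Dclk1 read 5.52, 4.88 and 3.90 in deficient and 4.33, 5.96 and 6.06 in control samples, a difference of -0.68. On 1435940_at it read 4.78, 4.72 and 3.94 in deficient and 4.57, 4.87 and 5.63 in control samples, a difference of -0.54. These 2 probe sets had the same direction as Trpm5, whereas the 4 others differed by 0.62 to 1.11 the other way. Fitted without a filter over all 34958 probe sets that name 1 gene, each of the 6 had a limma adjusted p between 0.855 and 0.982, so neither direction passed. None of the 18 probe sets of the 8 genes had an unadjusted p under 0.05 in that fit, against 3.95% of all probe sets. The last 3 (1451917_a_at, 1423125_at and 1446190_at) stayed between 2.25 and 2.76 on all arrays. Averaging the probe sets that passed the filter gave a Dclk1 difference of 0.34.

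**Figure D2:**
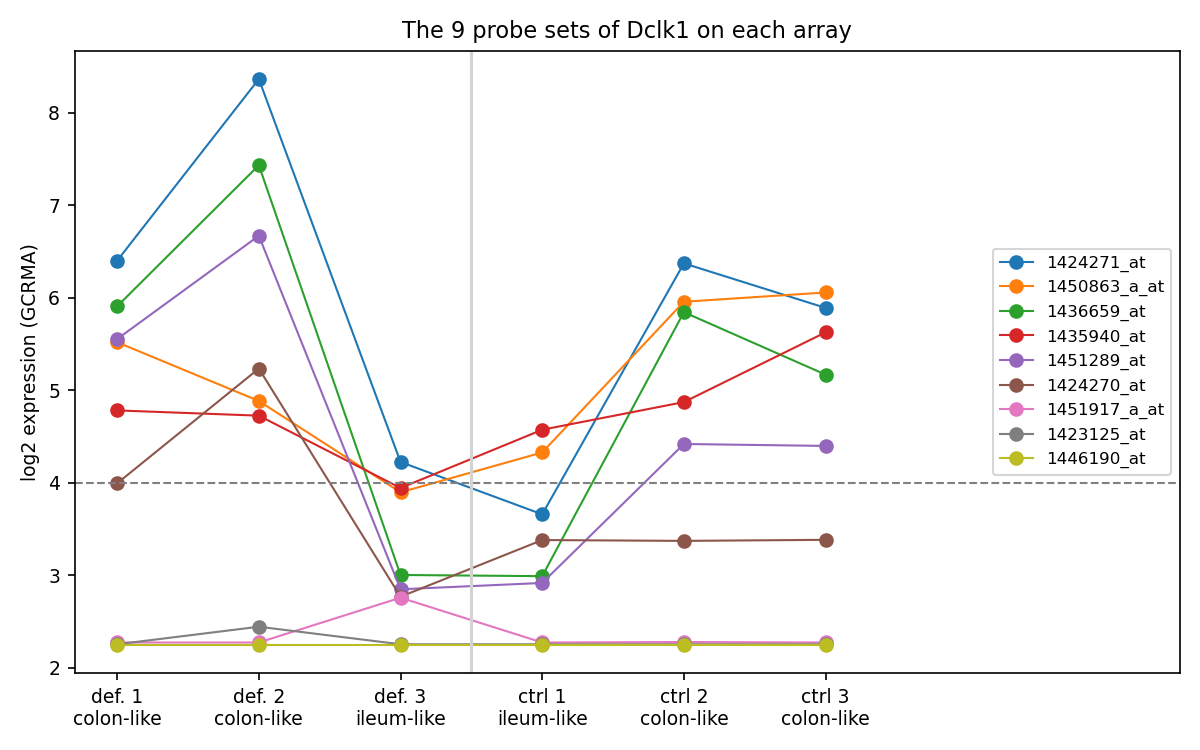
Log2 expression of each of the 9 Dclk1 probe sets (lines) on the 3 deficient and 3 control arrays, with the bowel profile of each array under its name and a dashed line at log2 4. The 4 probe sets that peak on deficient replicate 2 differ from 1450863_a_at and 1435940_at, which are highest on control replicate 3.

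RefSeq lists a start at the 5′ end of Dclk1 and another inside the gene, and both are shown since the probe sets of this gene diverged. Which transcript each probe set reads is not known from the sources used here. The upstream window is chr3:55242114-55242413 and the internal window chr3:55461478-55461777, both on the plus strand (GRCm38.p6).
Dclk1, upstream start: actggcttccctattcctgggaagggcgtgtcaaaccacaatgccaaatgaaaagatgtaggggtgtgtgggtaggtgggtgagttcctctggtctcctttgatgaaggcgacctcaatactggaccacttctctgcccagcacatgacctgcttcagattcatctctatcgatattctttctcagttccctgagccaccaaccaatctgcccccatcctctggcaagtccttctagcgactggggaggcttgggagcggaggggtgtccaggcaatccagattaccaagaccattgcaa
Dclk1, internal start: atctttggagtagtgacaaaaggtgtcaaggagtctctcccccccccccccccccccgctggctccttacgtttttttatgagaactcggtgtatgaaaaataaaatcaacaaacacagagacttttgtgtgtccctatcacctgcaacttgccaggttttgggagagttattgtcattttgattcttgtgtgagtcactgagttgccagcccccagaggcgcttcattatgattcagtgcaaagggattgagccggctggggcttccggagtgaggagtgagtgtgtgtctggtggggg
Neither window holds the octamer or its core.

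Marker lists of neurons, stroma and leukocytes shared their highest array, deficient replicate 2, with the leading Dclk1 probe set. Enteric neuron genes had a mean level of 5.60, 6.73 and 4.81 in deficient samples and 4.89, 5.69 and 5.99 in control samples, and 9 of 10 had a probe set, each above log2 4 on at least 1 array. Fibroblast and smooth muscle genes stood at 11.74, 12.28 and 11.14 in deficient samples and at 10.53, 11.78 and 11.82 in control samples. Both lists were highest on deficient replicate 2, where Dclk1 was highest, and lowest on the 2 ileum-like arrays. On deficient replicate 1 both lists lay below the colon-like controls, whereas the leading Dclk1 probe set lay above them. Leukocyte genes were highest on that array too, at 8.79, 9.71 and 8.28 in deficient and 8.16, 7.64 and 7.80 in control samples, with 10 of 10 members higher in deficient samples, 7 of them in groups that did not overlap, and none past the adjusted threshold. Over all genes 5986 of 10491 were higher, and 9.36% were higher with separate groups. The share of these cells in the Dclk1 values was not tested.

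**Figure D3:**
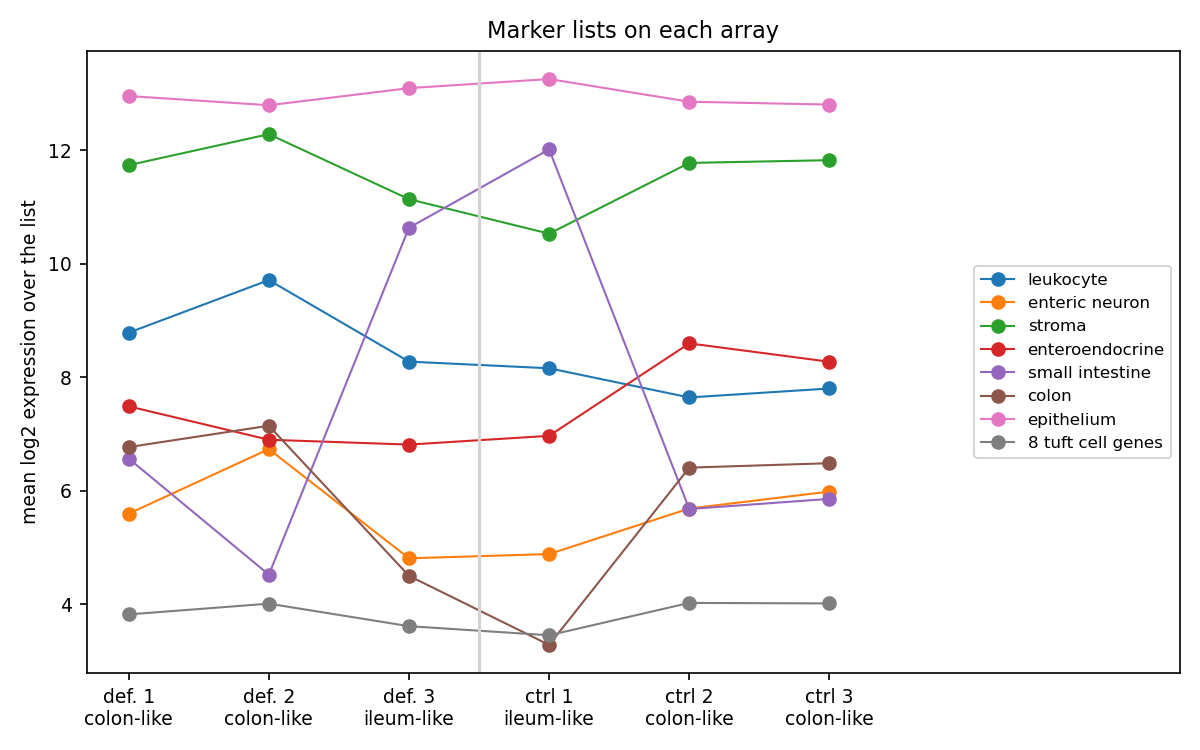
Mean log2 expression over each marker list and over the 8 tuft cell genes on the 3 deficient and 3 control arrays. Small intestine genes peak on deficient replicate 3 and control replicate 1, while neuron, stroma and leukocyte genes peak on deficient replicate 2.

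Among all 10491 genes, those with profiles most like Dclk1 were Ggh, a folate hydrolase, Medag, a gene named for its part in fat cell formation, and Cd300lf, a receptor of myeloid cells that tuft cells also carry. Likeness was the root mean square difference of the 6 values after each gene was centred on its own mean. It was 0.21 for Ggh, 0.24 for Medag and 0.24 for Cd300lf, where the median over all genes was 1.54. Cd300lf read 6.14, 8.06 and 4.57 in deficient and 3.79, 6.17 and 5.64 in control samples, highest on deficient replicate 2 and lowest on the ileum-like arrays, as Dclk1 was. For Avil the closest were Rit1, a small GTPase, at 0.07, Cap1, an actin regulator, at 0.08, and Sil1, a chaperone cofactor of the endoplasmic reticulum, at 0.10, against a median of 0.55. Trpm5 spanned 0.75 over the 6 arrays, under the range of 1 set for this comparison.

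None of the 3 tested tuft cell genes passed the limma threshold of an adjusted p under 0.05, and 0% of all genes did. At an unadjusted p under 0.05 there were 0 of 3, against 7.46% of all genes. Of the 3, 1 was higher and 2 were lower in deficient samples, with a median difference of -0.19, while the median over all genes was 0.06. For none of the 3 did the groups separate. Over all genes the deficient samples lay wholly above the control samples for 9.36% and wholly below for 4.15%.

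A longer list of 51 further genes of tuft cells was followed for context. Of these 44 had a probe set, 24 passed the filter, 11 were higher and 13 lower in deficient samples, and 0 passed the adjusted threshold. The median difference was -0.04. Groups did not overlap for 3 higher and 2 lower genes, against 9.36% and 4.15% of all genes, and 3 had an unadjusted p under 0.05, against 7.46% of all genes. Of the 24, 4 had an unadjusted p under 0.05 on the colon-like arrays, 3 higher and 1 lower, against 13.9% of all genes. Vav1 is among the higher genes with separate groups. It is also among those under 0.05, on all 6 arrays and on the colon-like arrays. Its control values were all under log2 4, so it passed the filter through the deficient samples alone. These counts are therefore not evidence of a difference.

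Several genes of the same cascade were at background too. Of 11 signalling genes listed, 9 had a probe set and 5 were at or under log2 4 on all arrays, among them the G protein subunits Gnb3 and Gng13 and the taste receptors Tas1r1 and Tas1r3. The 4 tested genes had 1 higher and 3 lower. Rgs13, a brake on G protein signalling that tuft cells share with mast cells and germinal centre B cells, read 6.68, 4.98 and 6.34 in deficient samples and 6.26, 8.04 and 8.12 in control samples. The 2 colon-like controls were highest, as for Trpm5, and the ileum-like control fell within the deficient range. The difference was -1.47 (standard error 0.68), at an adjusted p of 0.686 by limma. On the colon-like arrays it was -2.25 (unadjusted p 0.0192, adjusted p 0.306, limma), and between the ileum-like arrays 0.08. Of 10 mast cell markers 7 were at or under log2 4 on all arrays, among them Cpa3 and Fcer1a. Kit was above it on all 6 arrays by its leading probe set, at 7.06 to 8.95 in deficient and 7.03 to 8.88 in control samples. Hdc exceeded it on deficient replicate 2 alone, at 7.23. Mcpt2 exceeded it on the ileum-like arrays alone, at 4.57 in the deficient and 5.17 in the control sample. Itpr2, a calcium release channel, differed by -0.63 and Gnai2, an inhibitory G protein subunit, by 0.11, each with overlapping groups on its leading probe set. For Itpr2 the overlap was a tie at 6.49 between deficient replicate 1 and control replicate 3, and the limma adjusted p was 0.678. Its difference was -0.57 on the colon-like arrays and -0.74 between the ileum-like arrays. Another Itpr2 probe set (1424834_s_at) differed by -0.42 with overlapping groups. A dimmer Itpr2 probe set (1424833_at) read 3.85, 3.83 and 3.45 in deficient and 4.50, 4.36 and 4.22 in control samples, with separate groups and a difference of -0.65, which did not pass in the fit over all probe sets (limma unadjusted p 0.00885, adjusted p 0.855). As all its deficient values were under log2 4, it met the filter through the control samples. A further probe set of Gnai2 (1419449_a_at) gave -0.26, so that gene has no settled direction.

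Tuft cells also make leukotrienes and prostaglandins. Of 6 eicosanoid genes listed, 5 had a probe set and 3 were tested, with 2 higher and 1 lower. Alox5ap, the partner of 5-lipoxygenase in leukotriene synthesis, read 8.35, 9.48 and 6.63 in deficient samples and 6.11, 6.74 and 7.19 in control samples. It differed by 1.47 (limma adjusted p 0.703), and the deficient ileum-like array fell among the controls. On the colon-like arrays it was 1.95 (unadjusted limma p 0.0113, adjusted 0.285). Pla2g4a, which frees arachidonic acid, differed by 0.85, and Alox5, the lipoxygenase itself, by -0.20. Alox5 was near background, at 4.03, 4.60 and 3.50 in deficient and 3.50, 4.03 and 5.19 in control samples, so its direction is not settled. Ltc4s, the leukotriene C4 synthase of tuft cells and myeloid cells, did not exceed 3.21 on any array. Alox5ap, like the leukocyte list, was highest on deficient replicate 2 and next highest on deficient replicate 1, and leukocytes also express it. That contribution was not tested.

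Of the 34 other markers, 30 had a probe set and 17 were tested, 8 higher and 9 lower. The 3 with the smallest p were Vav1, a signalling protein shared with blood cells, Skap2, an adaptor of the same kind, and Inpp5j, an inositol phosphatase. Vav1 read 4.74, 4.56 and 4.73 in deficient samples and 3.62, 2.61 and 3.12 in control samples, and as all controls were under log2 4 it could enter the test only by being higher in deficient samples. Skap2 differed by 1.49 and Inpp5j by -0.53, with separate groups. Another Skap2 probe set that passed the filter (1460623_at) differed by 0.87 with overlapping groups. Their limma adjusted p ran from 0.659 to 0.667. Vav1 and Skap2 followed the direction of the 10 leukocyte genes, and how far those cells set their values was not tested.

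**Figure D4:**
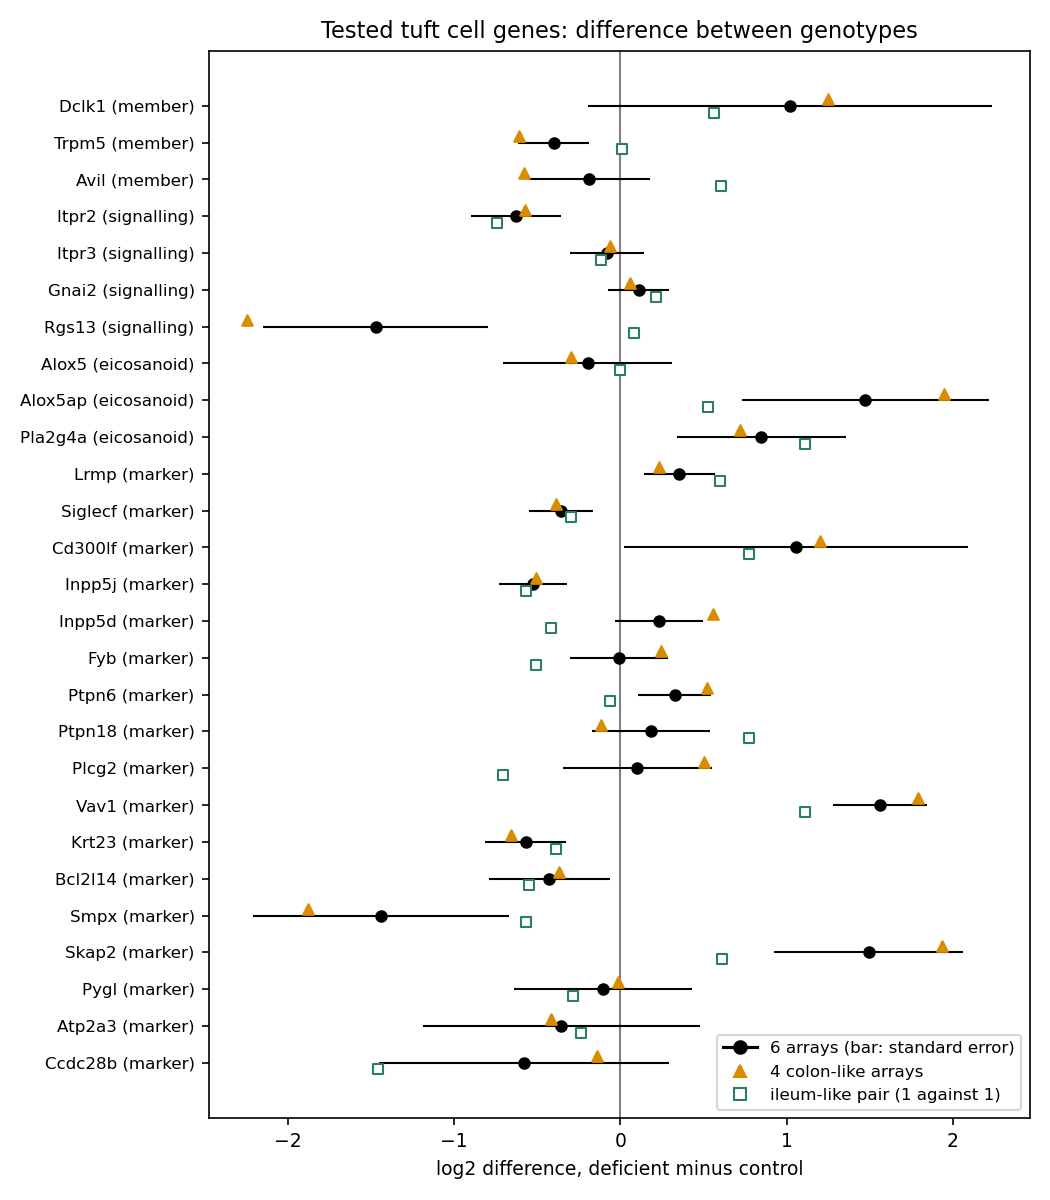
Log2 difference, deficient minus control, for the 3 tested tuft cell genes and 24 further genes of tuft cells, from 6 arrays (black, with standard error), from the 4 colon-like arrays (triangles) and between the 2 ileum-like arrays (squares). Trpm5 and Rgs13 lie below 0 on the colon-like arrays, at -0.61 and -2.25, and near 0 in the ileum-like pair, while Dclk1 and Alox5ap lie above 0.

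The circuit that IL-25 feeds was partly readable. Of 20 listed genes 18 had a probe set, and 7 of them were at or under log2 4 on all arrays: the cytokines Il4, Il5, Il9, Il13 and Tslp, the IL-25 receptor chain Il17rb, and the decoy receptor Il13ra2. Of 9 tested genes 7 were higher and 2 lower in deficient samples, with a median difference of 0.53 and 0 past the adjusted threshold. The median was 0.65 on the colon-like arrays and 0.05 in the ileum-like pair. The leukocyte genes, 10 of 10 higher, had a median difference of 1.11, and their part in this list was not tested. Il4ra, the receptor chain through which IL-4 and IL-13 reach tuft cell progenitors, read 7.87, 7.81 and 8.33 in deficient samples and 7.40, 7.43 and 7.29 in control samples. Every deficient value exceeded every control value, a pattern found in that direction for 9.36% of all genes. Its difference was 0.63 (standard error 0.19), with an unadjusted limma p of 0.0184 and an adjusted p of 0.659. A less bright Il4ra probe set (1423996_a_at) differed by 0.23 with overlapping groups.

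Il13ra1, the other chain of that receptor, also had separate groups on its leading probe set. It read 9.60, 9.63 and 9.70 in deficient samples and 9.41, 9.07 and 8.86 in control samples, a difference of 0.53 (limma adjusted p 0.667). Its 3 other probe sets above the filter differed by 0.39 to 1.10. Il33, an alarm cytokine that acts in parallel to IL-25, read 9.18, 10.51 and 6.88 in deficient samples and 6.82, 6.50 and 7.69 in control samples, a difference of 1.85 with overlapping groups (limma adjusted p 0.703). Il33 was highest on deficient replicate 2, as the leukocyte list was. On the colon-like arrays its difference was 2.75 (unadjusted limma p 0.0111, adjusted 0.285), and between the ileum-like arrays it was 0.05. Retnlb, the goblet cell effector of IL-13, was high on all arrays but 1: it read 14.10, 12.66 and 11.64 in deficient samples and 2.32, 11.45 and 12.73 in control samples. The low array was the ileum-like control, and Retnlb is named here after its values were seen. The ileum-like deficient array did not share this low level. On the colon-like arrays the Retnlb difference was 1.30, with an unadjusted limma p of 0.128.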

How the data were processed

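Expression was measured on Affymetrix mouse expression arrays, 1 for each of 3 deficient and 3 control mice. The authors made the deposited log2 values, 1 for each probe set and array, with GCRMA, per the submitters' processing notes; no version or setting is named there. That the scale is log2 was judged from the values (2.25 to 16.2). Genes were named from the platform annotation, and no symbol differed from the reference gene table. Probe sets naming several genes (932) or none (9211) were left out.

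Each gene was represented by its highest-mean probe set among those above log2 4 on at least 3 arrays. The test was limma 3.58.1 under R 4.3.3, by lmFit and then eBayes, two-sided and without covariates, with Benjamini-Hochberg adjustment over 10491 genes. A second fit covered all 34958 one-gene probe sets without a filter. The code was tested on simulated data. An array was called ileum-like where its mean over 9 small intestine genes exceeded that over 9 colon genes. Named genes were the 8 members, the 3 of each further tuft list and of the type 2 list with the smallest p, and the 3 genes nearest to a member in profile; other genes are named as marker examples. The members and lists were chosen with earlier results of these data known. Alternatives changed filter, normalization, probe set rule, variance model, floor, covariates, threshold and arrays. Replicates are labelled biological, and their number limits the precision.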

Additional observations from a re-analysis of the deposited data

How the results depend on the processing

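No tuft cell gene passed the threshold under any of the alternatives run (0 called in each, limma). Over all genes the count was 0 with the settings used and moved to 1 with probe sets without suffix and to 2 with array weights. The median difference over the tested tuft cell genes, -0.19, became 1.02 with a filter at log2 6, which leaves Dclk1 alone, and leaving out each array in turn gave -0.58 to 0.11. The Avil difference reversed to 0.11 without control replicate 2. With the replicate number as a block, the differences stayed at -0.40 for Trpm5, -0.19 for Avil and 1.02 for Dclk1, with limma adjusted p of 0.893, 0.952 and 0.903 and 0 genes called. Deviations of same-numbered samples correlated at -0.54, 0.36 and -0.61, and those of the 2 ileum-like arrays at 0.69. Pairs of arrays with like bowel profile had positive values and unlike pairs negative ones. The check therefore cannot decide whether the numbers pair the mice. With the bowel profile as a block the adjusted p were 0.431 for Trpm5, 0.800 for Avil and 0.457 for Dclk1. The Trpm5 difference stayed below 0 throughout, between -0.59 and -0.29 when each array was left out. Signal close to background limits Trpm5, Avil and the 5 genes that failed the filter.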

Other observations

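Deficient replicate 2 stood apart in several genes that were listed for other reasons, named here after their values were seen. Arg1, an arginase of macrophages and a type 2 response gene, read 5.44 on it against 2.28 to 2.32 on the other 5 arrays. Hdc, which makes histamine, read 7.23 against 2.25 to 2.90. Tslp, an epithelial alarm cytokine, read 3.59 against 2.51 on each of the others, all under log2 4 and so near background. Hoxb13, a gene of the hindmost body axis, read 7.30 against 2.25 to 3.76.

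Gp1bb, listed as a platelet gene, read 4.13 to 6.06 on the colon-like arrays but 9.69 and 9.87 on the ileum-like deficient and control arrays, while the platelet chemokine Pf4 ran the other way, at 6.95 and 6.69 on the ileum-like deficient and control arrays and 8.17 to 9.05 on the colon-like arrays. The second Gp1bb probe set (1456427_at) was also highest on the ileum-like arrays, at 3.44 in the deficient and 3.89 in the control sample, but under log2 4. Gp9 and Itga2b stayed between 2.25 and 2.82 on all 6 arrays.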
